A study of Homo sapiens with 9 samples.

Results

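The genes described here are 9 known targets of the hypoxia-inducible factors (HIF): NDRG1, CA9, ADM, ANKRD37, BNIP3, EGLN3, PDK1, KDM3A and ANGPTL4. They are a list of known targets drawn up with earlier results of these data in view, so their counts of calls are descriptions. Each symbol matched 1 row of the deposited tables, and they are 9 of 58336 genes. RNA was sequenced from HaCaT cells, an immortalised line of human skin keratinocytes. The labels describe 3 samples each of cells given low-dose photodynamic therapy and kept for 12 h, of cells given the same therapy and kept for 48 h, and of untreated control cells. In this therapy 5-aminolevulinic acid (ALA), a precursor of the photosensitiser protoporphyrin IX, was given at 0.5 mmol/L and followed by light of 635 ± 5 nm at 3 J/cm2. The 9 libraries carry names on 3 stems, B, A and Nc, with 3 libraries each. Nc was read as control, which is a reading of the abbreviation, and B and A were taken as the treated stems because they are the ones left. Neither B nor A is tied to 12 h or 48 h by any source used here, so all results are given by stem. The labels give light and drug settings for treated cells only, and no group that received ALA or light alone is described. The labels do not say whether the libraries of a stem are separate cultures. All p-values rest on the spread among them, which may therefore be technical.

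The libraries held 16573313 to 18028419 counts in B, 15337296 to 16517969 in A and 16354678 to 16989712 in Nc. All 8 keratinocyte markers examined were measured, although KRT14, a keratin of basal keratinocytes, had only 2, 2 and 3 counts in B, 19, 12 and 20 in A and 9, 8 and 15 in Nc. Globin transcripts of red blood cells (HBB, HBA1 and HBA2) split the libraries in a way the stems do not. They summed to 4, 8 and 8381 counts in B1, B2 and B3, to 597, 1244 and 7 in A1, A2 and A3, and to 7336, 7457 and 3 in Nc1, Nc2 and Nc3. Calls that were lost when 1 library was left out are named as such, with the libraries.

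HIF is a pair of proteins, an oxygen-regulated alpha subunit (HIF1A or EPAS1) and a stable partner (ARNT). When oxygen is present, prolyl hydroxylases of the EGLN family mark the alpha subunit, the VHL complex recognises the mark and the subunit is degraded. When hydroxylation slows, because of low oxygen, loss of iron or other conditions, the pair binds a short DNA core motif and switches on genes for glycolysis, pH control, blood vessel growth and mitochondrial turnover. In skin, HIF targets are familiar from wound edges and from the epidermis, which is a poorly oxygenated tissue. Messenger RNA levels, which are what was measured here, do not show the amount of HIF protein.

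The core motif of HIF binding is ACGTG or GCGTG. Both forms were searched on both strands in the 250 bases upstream of the RefSeq start site (GRCh38.p14), for the 8 of the 9 genes that matched the RefSeq promoter table (all but NDRG1). A match lay in 6 of the 8 windows: 1 each in CA9, ADM, KDM3A and ANGPTL4, 3 in ANKRD37 and 6 in BNIP3, where overlapping matches on opposite strands were counted separately. The windows of EGLN3 and PDK1 held none, which says only that these letters are absent there. Of all 35116 promoters of the table, 43.2% held either form, 18.5% ACGTG and 32.2% GCGTG, so a single match in a window is common. The windows are printed for the 4 genes that hold a match and were called higher in B than in Nc below. Capitals mark the matches, which appear as CACGT or CACGC where the match is on the other strand. The windows are CA9 at chr9:35673678-35673927 on the plus strand, ADM at chr11:10304823-10305072 on the plus strand, BNIP3 at chr10:131981924-131982173 on the minus strand and ANGPTL4 at chr19:8363905-8364154 on the plus strand, each written 5′ to 3′ along the gene.
CA9: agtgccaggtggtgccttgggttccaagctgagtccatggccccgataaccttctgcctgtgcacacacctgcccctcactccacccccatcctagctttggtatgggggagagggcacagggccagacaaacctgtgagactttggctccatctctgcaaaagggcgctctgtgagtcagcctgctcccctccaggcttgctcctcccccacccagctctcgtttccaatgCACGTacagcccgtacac
ADM: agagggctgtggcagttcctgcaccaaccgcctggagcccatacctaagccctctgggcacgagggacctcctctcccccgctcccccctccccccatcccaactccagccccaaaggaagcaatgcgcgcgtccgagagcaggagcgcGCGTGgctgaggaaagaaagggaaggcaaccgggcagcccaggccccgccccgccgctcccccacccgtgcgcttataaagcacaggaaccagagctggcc
BNIP3: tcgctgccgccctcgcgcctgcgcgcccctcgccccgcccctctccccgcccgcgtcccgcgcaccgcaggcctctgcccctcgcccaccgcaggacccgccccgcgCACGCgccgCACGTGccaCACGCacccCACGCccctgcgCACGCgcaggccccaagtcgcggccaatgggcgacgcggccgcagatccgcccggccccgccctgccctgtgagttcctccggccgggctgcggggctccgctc
ANGPTL4: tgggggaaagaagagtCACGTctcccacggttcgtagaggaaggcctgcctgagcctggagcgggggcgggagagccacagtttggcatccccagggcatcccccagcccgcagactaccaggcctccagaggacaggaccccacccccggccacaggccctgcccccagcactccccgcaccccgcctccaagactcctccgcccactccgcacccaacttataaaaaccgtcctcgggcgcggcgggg

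The CA9 match began 18 bases before the start site, the ADM match 101 bases before it and the ANGPTL4 match 234 bases before it. In BNIP3 the 6 matches began between 143 and 104 bases upstream, within a run of CACGC and CACGTG. These distances are from the RefSeq start site and not from the start of the gene in the deposited tables. The ADM and ANGPTL4 windows lie within the genes as deposited, and the CA9 and BNIP3 windows overlap the deposited gene starts. A match is a description of the letters and not evidence of binding, and no binding was measured.

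**Figure D1:**
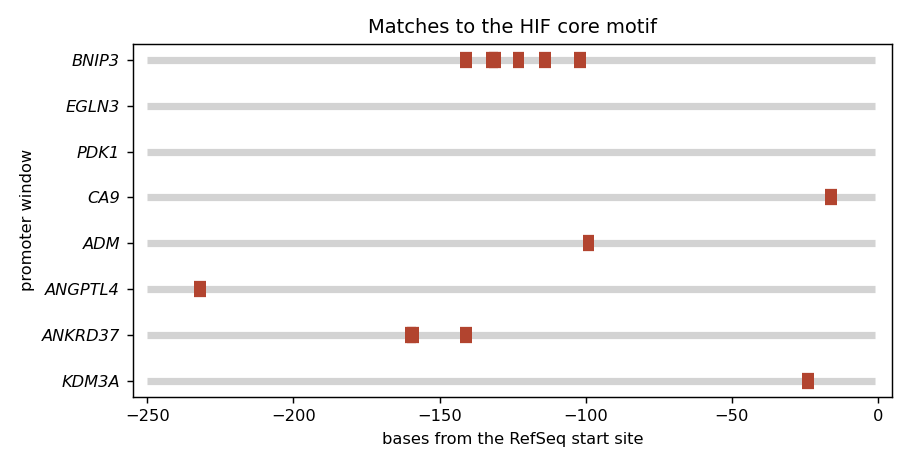
Positions of matches to ACGTG or GCGTG, on either strand, in the 250 bases before the RefSeq start site of 8 HIF target genes. The horizontal axis gives bases from the start site, grey bars are the windows and red blocks the matches, which crowd in BNIP3 and are missing from EGLN3 and PDK1.

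Against Nc, 7 of the 9 genes were called higher in B and none lower, at an adjusted p under 0.05. Among all 13845 genes tested, 6.12% were called higher and 7.24% lower in the same comparison. These are 847 genes higher and 1003 lower, a split that became 750 higher and 492 lower when library totals replaced TMM scaling. With 1 library left out, 5 to 7 of the 9 were called in B against Nc, and the call of CA9 was lost each time. In the fit of all libraries the median log2 fold change of the 9 genes was 0.77, against 0.00 for all genes. Against Nc, stem A called 1 of the 9 higher (ANGPTL4) and none lower, where 1.76% of all genes were called higher and 0.953% lower, and the median of the 9 was 0.17, against 0.01 for all genes. Set directly against A, B had 5 of the 9 genes higher and none lower, where 8.79% of all genes were higher and 9.25% lower, and the median of the 9 was 0.57, against -0.02. That split, 1217 higher and 1281 lower, became 1346 and 799 with library totals. A test for any difference among the 3 stems, which does not depend on which stem stands for which time, called 7 of the 9 genes and 22.3% of all genes. The comparisons share libraries, so their values are given side by side and are not independent of each other. All fold changes and adjusted p-values below are from edgeR's quasi-likelihood test with Benjamini-Hochberg adjustment over all genes tested. In bulk RNA, a change per cell and a change in the share of cells that express a gene cannot be told apart.

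By level per length of transcript (FPKM), the 9 genes spanned a wide range in each library. NDRG1 ranked first and CA9 last in all 9 libraries, and EGLN3 held rank 5 in all 9. ADM, ANGPTL4 and BNIP3 took the ranks 2 to 4 and KDM3A, ANKRD37 and PDK1 the ranks 6 to 8. Within these trios the order changed between libraries, though not for every pair, as ADM stood above BNIP3 in all 9. In Nc, ANGPTL4 averaged 10.6 ± 1.16 FPKM and BNIP3 10.3 ± 0.742 FPKM (SD, n = 3 each), which are not separated beyond their spread. ADM was well above both there, at 25.8 ± 3.04 FPKM.

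**Figure D2:**
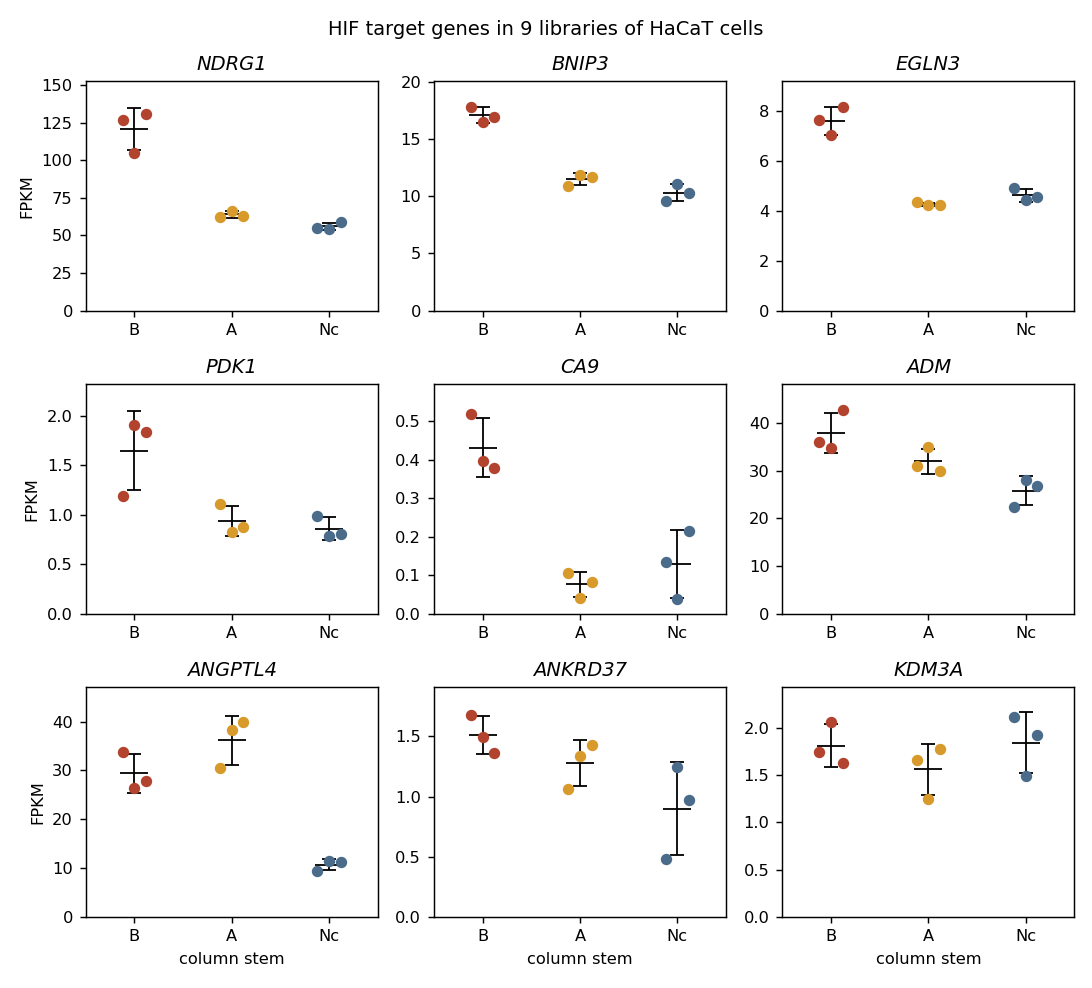
FPKM (vertical axes, starting at 0) of the 9 HIF target genes in the 3 libraries of each stem, B, A and Nc from left to right. Points are libraries, and the bars are mean and SD (n = 3); the B libraries of NDRG1, BNIP3, EGLN3, PDK1 and CA9 lie above all others, while in ANGPTL4 both B and A lie above Nc.

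NDRG1 (ENSG00000104419), a cytoplasmic protein induced by hypoxia and other stresses in many tissues, was the most abundant of the 9. It lies at chr8:133237171-133302022 on the minus strand of GRCh38. Its level was 127, 104 and 131 FPKM in B1, B2 and B3, 62.5, 66.4 and 62.8 FPKM in A, and 55.0, 54.2 and 58.9 FPKM in Nc. Every B library stood above every other library, and the A libraries stood just above those of Nc. NDRG1 was 2.17-fold higher in B than in Nc (95% interval 1.81 to 2.59, edgeR adjusted p = 0.000128) and 1.88-fold higher in B than in A (1.57 to 2.25, edgeR adjusted p = 0.00015). Between A and Nc the log2 difference was 0.20 ± 0.121 (SE), which was not called (edgeR adjusted p = 0.323), with an interval of the ratio from 0.965 to 1.38. No other NDRG family member of the 3 measured was called in any of the comparisons.

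BNIP3 (ENSG00000176171, chr10:131966455-131982013), a protein of the outer mitochondrial membrane that recruits the autophagy machinery to mitochondria, followed the same pattern at a lower level. It had 17.8, 16.5 and 16.9 FPKM in B, 10.9, 11.8 and 11.7 FPKM in A and 9.60, 11.1 and 10.3 FPKM in Nc. The B libraries were separate from the rest, whereas A and Nc overlapped. BNIP3 was 1.67-fold higher in B than in Nc (1.42 to 1.96, edgeR adjusted p = 0.00128) and 1.49-fold higher than in A (1.26 to 1.75, edgeR adjusted p = 0.00252). A against Nc gave a log2 difference of 0.17 ± 0.111, which was not called (edgeR adjusted p = 0.382).

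EGLN3 (ENSG00000129521, chr14:33924231-34462774) encodes prolyl hydroxylase PHD3, an oxygen-dependent enzyme that acts on HIF alpha subunits and is itself a HIF target. Its level was 7.63, 7.02 and 8.14 FPKM in B, 4.33, 4.21 and 4.22 FPKM in A and 4.92, 4.42 and 4.54 FPKM in Nc. Here the A libraries lay slightly below all Nc libraries while the B libraries lay well above both. The gene was 1.65-fold higher in B than in Nc (1.41 to 1.95, edgeR adjusted p = 0.00141) and 1.78-fold higher in B than in A (1.51 to 2.10, edgeR adjusted p = 0.000147), and A against Nc was not called (log2 -0.11 ± 0.112, edgeR adjusted p = 0.594). SPTSSA, a subunit of serine palmitoyltransferase, overlaps EGLN3 on the same strand over 29568 bases of the annotation and had 1165 to 1759 counts in B, 691 to 919 in A and 915 to 1096 in Nc. Whether reads were exchanged between this pair was not tested.

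PDK1 (ENSG00000152256, chr2:172555373-172608669), pyruvate dehydrogenase kinase 1, limits the oxidation of pyruvate in the mitochondria by switching off pyruvate dehydrogenase. It had 1.19, 1.91 and 1.84 FPKM in B, 1.11, 0.823 and 0.880 FPKM in A and 0.989, 0.784 and 0.809 FPKM in Nc. B1 was close to the highest A library, and B2 and B3 stood clear of it. The gene was 1.93-fold higher in B than in Nc (1.47 to 2.52, edgeR adjusted p = 0.00498) and 1.75-fold higher than in A (1.34 to 2.29, edgeR adjusted p = 0.00713). A against Nc was not called (log2 0.14 ± 0.187, edgeR adjusted p = 0.685). The antisense gene AC078883.1, which overlaps PDK1, had 31, 31 and 33 counts in B, 19, 21 and 15 in A and 16, 8 and 22 in Nc. The strand setting of the counting is not given in the sources used here.

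CA9 (ENSG00000107159, chr9:35673856-35681159), a membrane carbonic anhydrase that helps cells export acid and is a widely used marker of hypoxia, was the least abundant. It had 14, 12 and 12 counts in B, 3, 1 and 2 in A and 4, 1 and 6 in Nc, which correspond to 0.378 to 0.518 FPKM in B, 0.0405 to 0.105 FPKM in A and 0.0386 to 0.214 FPKM in Nc. The B libraries exceeded all others, by few counts. The fitted ratio of B to Nc was 3.22 (1.46 to 7.12, edgeR adjusted p = 0.0491) and that of B to A 5.28 (2.16 to 12.9, edgeR adjusted p = 0.0134). The call against Nc was narrow: it was lost when any single library was left out, with edgeR adjusted p between 0.0623 and 0.147, and with DESeq2 (adjusted p = 0.0995). Without A2 the call against A was lost as well (edgeR adjusted p = 0.0644), and likewise without A3 (edgeR adjusted p = 0.0585). CA9 overlaps ARHGEF39 on the opposite strand, which had 212 to 284 counts in B, 282 to 312 in A and 251 to 283 in Nc, a range that does not follow CA9.

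ADM (ENSG00000148926, chr11:10304680-10307397) encodes adrenomedullin, a secreted peptide that widens blood vessels and acts through the receptor CALCRL with a RAMP partner. Its level was 36.1, 34.9 and 42.8 FPKM in B, 31.1, 35.1 and 30.1 FPKM in A and 22.4, 28.2 and 26.9 FPKM in Nc. Both treated stems lay above Nc, and B and A overlapped. Relative to Nc, ADM was 1.48-fold higher in B (1.22 to 1.79, edgeR adjusted p = 0.0114), a call that was lost without B3 (log2 0.48, edgeR adjusted p = 0.0834). In A it was 1.25 times the level of Nc (1.04 to 1.52), which was not called (edgeR adjusted p = 0.157). B against A was not called either (ratio 1.18, interval 0.977 to 1.43, edgeR adjusted p = 0.212).

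ANGPTL4 (ENSG00000167772, chr19:8363289-8374373), a secreted inhibitor of lipoprotein lipase that is controlled by HIF and also by PPAR nuclear receptors, was called in both treated stems. It had 33.8, 26.4 and 27.9 FPKM in B, 30.5, 38.2 and 39.8 FPKM in A and 9.33, 11.5 and 11.1 FPKM in Nc. Each treated library was above each Nc library by a wide margin. ANGPTL4 rose 2.78-fold in B (2.25 to 3.43, edgeR adjusted p = 4.1e-05) and 3.43-fold in A (2.77 to 4.24, edgeR adjusted p = 3.62e-06) relative to Nc. B and A overlapped, with a log2 difference of -0.30 ± 0.138 that was not called (edgeR adjusted p = 0.139); without A1 it was -0.42 and was called (edgeR adjusted p = 0.0460).

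ANKRD37 and KDM3A were called in none of the comparisons of 2 stems in the fit of all 9 libraries. ANKRD37 (ENSG00000186352, chr4:185396021-185400628), a small ankyrin repeat protein, had 1.68, 1.5 and 1.36 FPKM in B, 1.06, 1.34 and 1.43 FPKM in A and 0.479, 1.25 and 0.970 FPKM in Nc. All 3 B libraries exceeded all Nc libraries, but the Nc libraries were far apart. The ratio of B to Nc was 1.70 (1.12 to 2.58, edgeR adjusted p = 0.0818), a log2 difference of 0.77 ± 0.284. Without Nc2 it was 1.09 and was called (edgeR adjusted p = 0.0319), and without Nc1 it was 0.45 and was not (edgeR adjusted p = 0.265). ANKRD37 shares bases with UFSP2 on the opposite strand, which had 109 to 146 counts in B, 108 to 168 in A and 193 to 228 in Nc.

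KDM3A (ENSG00000115548, chr2:86440647-86492716), an oxygen-dependent demethylase of histone H3 lysine 9, had 1.74, 2.07 and 1.63 FPKM in B, 1.66, 1.25 and 1.77 FPKM in A and 2.12, 1.5 and 1.92 FPKM in Nc. The 3 stems overlapped. The ratio of B to Nc was 0.991 with an interval from 0.783 to 1.25 (edgeR adjusted p = 0.969), and A against Nc gave a log2 difference of -0.23 ± 0.162 (edgeR adjusted p = 0.41). The sign of B against Nc changed under other settings.

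**Figure D3:**
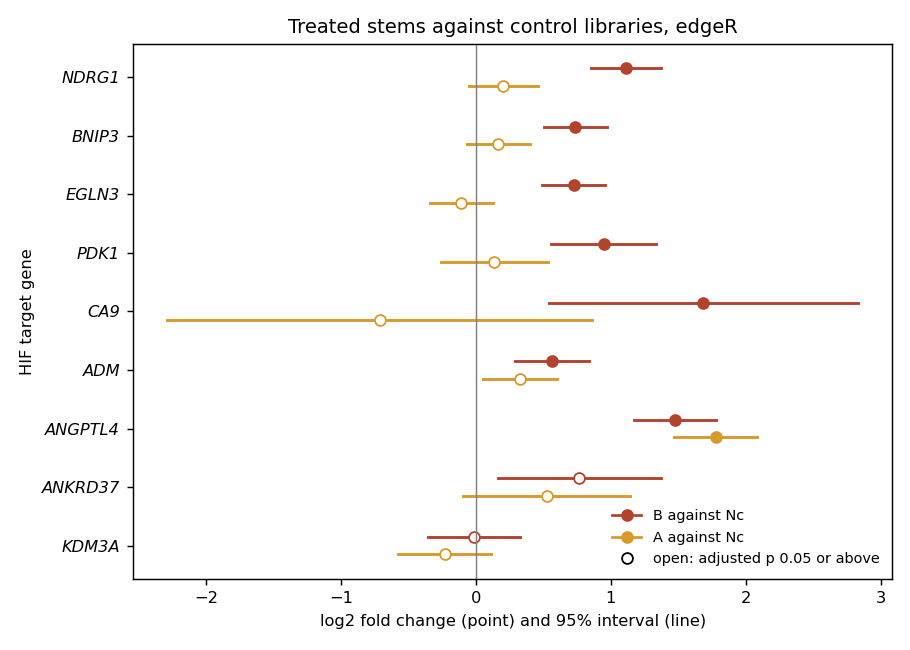
Log2 fold change of each HIF target gene in B against Nc (red) and A against Nc (yellow), with 95% intervals as lines; filled points were called at an adjusted p under 0.05. Both comparisons share the Nc libraries. NDRG1, BNIP3, EGLN3, PDK1, CA9, ADM and ANGPTL4 are filled in B, and ANGPTL4 alone is filled in A.

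The libraries of A and Nc with the same number deviated together from their stem means, and a fit of these stems alone with the number as a block, added after the data were seen, gave more calls. It called 16.5% of 13216 genes higher and 18.3% lower in A than in Nc. Every gene named from the blocked fit below stands against these shares. The pairing was read from the same values that were tested, so the calls of this fit are descriptions. Of the 8 HIF target genes that passed its filter, which CA9 did not, 2 were called higher and 1 lower, a share near that of all genes. ANGPTL4 was 3.37-fold higher (3.05 to 3.71, edgeR adjusted p = 2.14e-09). ADM was 1.24-fold higher (1.11 to 1.38, edgeR adjusted p = 0.00599), and KDM3A was lower, with a log2 difference of -0.25 ± 0.0838 (edgeR adjusted p = 0.0334). NDRG1 stayed uncalled at 0.18 ± 0.071 (edgeR adjusted p = 0.0625), as did BNIP3, EGLN3, PDK1 and ANKRD37.

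The regulators of HIF themselves moved in both directions in B. Of 18 regulators measured, 4 were higher and 3 lower in B than in Nc, where 6.12% of all genes were higher and 7.24% lower, while none was called in A against Nc in the unblocked fit. With 1 library left out, 2 to 4 were higher and 0 to 3 lower in B. EPAS1, the HIF-2 alpha subunit, stood at 35.8 ± 2.44 FPKM in B, 21.6 ± 2.00 FPKM in A and 23.8 ± 2.82 FPKM in Nc (SD, n = 3 each). It rose by 0.60 ± 0.126 on the log2 scale in B against Nc (edgeR adjusted p = 0.0074) and by 0.73 ± 0.126 in B against A (edgeR adjusted p = 0.00118). HIF1A, the HIF-1 alpha subunit, averaged 15.6 ± 3.09 FPKM in B, 17.8 ± 2.67 FPKM in A and 23.9 ± 4.44 FPKM in Nc. Its log2 difference was -0.60 ± 0.168 in B (edgeR adjusted p = 0.0283) and -0.41 ± 0.167 in A (edgeR adjusted p = 0.166, and 0.00018 in the blocked fit at -0.43). B against A gave -0.19 for HIF1A and was not called (edgeR adjusted p = 0.464).

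Of the oxygen sensors and the degradation complex, VHL, the substrate receptor, was higher in B than in Nc by 0.63 ± 0.12 log2 (edgeR adjusted p = 0.00478), and EGLN1, the main HIF prolyl hydroxylase PHD2, by 0.40 ± 0.12 (edgeR adjusted p = 0.0367). CUL2, the scaffold of the complex, was lower, at -0.56 ± 0.172 (edgeR adjusted p = 0.0431), as was the chaperone HSP90AB1, at -0.58 ± 0.13 (edgeR adjusted p = 0.0101). ARNT2, a partner of the alpha subunits, was higher by 0.78 ± 0.237 (edgeR adjusted p = 0.0389) at 0.567 ± 0.0277 FPKM in B, 0.346 ± 0.0882 FPKM in A and 0.332 ± 0.0732 FPKM in Nc. The main partner ARNT was at 0.00 ± 0.13. The other 10 regulators were not called in B against Nc, with log2 differences of 0.95 for EGLN2, 0.17 for HIF1AN, -0.15 for ELOB, -0.24 for ELOC, -0.25 for RBX1, -0.22 for CREBBP, 0.05 for EP300, 0.42 for CITED2, 0.34 for SIAH1 and 0.11 for SIAH2. In the blocked fit of A against Nc, SIAH2 was higher (0.18, edgeR adjusted p = 0.0472) and CUL2 lower (-0.20, edgeR adjusted p = 0.0481) beside HIF1A, so 1 of 18 was higher and 2 lower, where 16.5% of all genes were higher and 18.3% lower. Of the calls in B against Nc, those of EPAS1 and VHL held when each of the 9 libraries was left out in turn. The call of HSP90AB1 was lost without B3, that of HIF1A without B1, B3, Nc1 or Nc3, and that of EGLN1 without A3, B2, B3, Nc2 or Nc3. ARNT2 and CUL2 each lost theirs without A3, B1, B2, B3, Nc1 or Nc3.

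**Figure D4:**
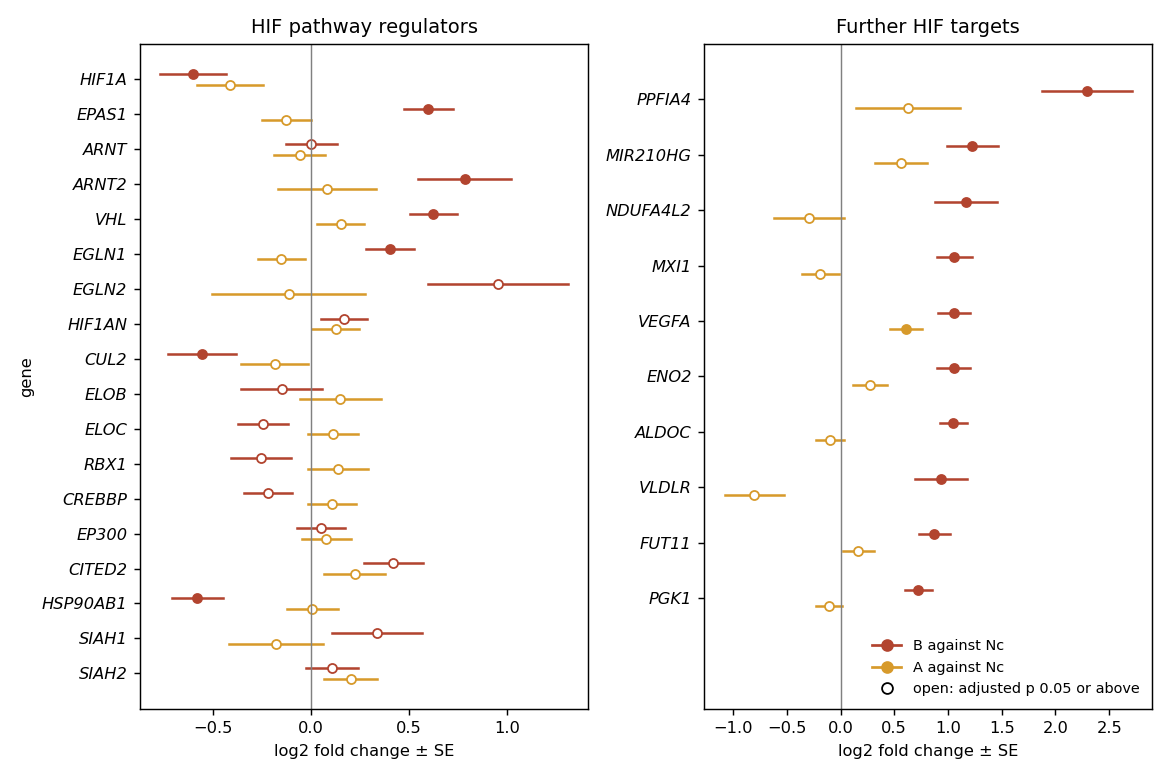
Log2 fold change ± SE of 18 HIF regulators (left) and of the 10 further HIF targets with the largest changes among those called in the test of the 3 stems (right), in B against Nc (red) and A against Nc (yellow); filled points were called. The further targets, chosen for being called, lie on the positive side in B, and VEGFA alone is filled in A.

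A longer list of 60 further HIF targets shows how the 9 genes compare with the wider response. Of the 55 that passed the filter, 20 were higher and none lower in B than in Nc, with a median log2 difference of 0.35, where 6.12% of all genes were higher. With 1 library left out, 13 to 20 were higher and 0 to 1 lower. Against A, B had 24 higher and 2 lower (13 to 28 and 0 to 3 with 1 library left out), where 8.79% of all genes were higher and 9.25% lower. The 2 lower ones were HMOX1, the haem oxygenase (-0.58, edgeR adjusted p = 0.0214), and the integrin ITGA5 (-0.34, edgeR adjusted p = 0.0477). HMOX1 lost its call without A2, A3, B2 or B3, and ITGA5 in 7 of the 9 fits that left out 1 library, all but those without A1 and Nc1. A against Nc had 3 higher and none lower, where 1.76% of all genes were higher and 0.953% lower. The median was 0.06, and with 1 library left out 0 to 5 were higher and 0 to 2 lower. The 3 were VEGFA, the main angiogenic growth factor, SLC2A1, the glucose transporter GLUT1, and ITGA5. SLC2A1 lost this call without A2, A3, Nc1, Nc2 or Nc3 and ITGA5 without A2, A3, Nc1 or Nc3. With the block, 15 of the 55 were higher and 10 lower in A, where 16.5% of all genes were higher and 18.3% lower.

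Of the further targets called in the test among the 3 stems, the 10 with the largest changes against Nc were all higher in B. The uncalled SLC2A3, at 0.87 in B against Nc (edgeR adjusted p = 0.0849), would stand among them by size. PPFIA4 had the largest, 2.29 ± 0.421 log2, from a low level of 0.261 ± 0.103 FPKM in B, 0.0814 ± 0.0209 FPKM in A and 0.0532 ± 0.0286 FPKM in Nc. MIR210HG, the host transcript of the hypoxia microRNA miR-210, was higher by 1.22 ± 0.237 (edgeR adjusted p = 0.00499). NDUFA4L2, a HIF-induced damper of respiratory complex I, was higher by 1.17, and MXI1, an antagonist of MYC, by 1.06. The glycolytic genes ENO2, ALDOC and PGK1 were higher by 1.05, 1.05 and 0.72, the fucosyltransferase FUT11 by 0.87 and the lipoprotein receptor VLDLR by 0.94. NDUFA4L2 lost its call without B3 or Nc1, and VLDLR without B2, B3 or Nc1. In the blocked fit of A against Nc, MIR210HG was higher (0.55) and VLDLR lower (-0.82). PGK1 averaged 261 ± 16.4 FPKM in B, 147 ± 11.1 FPKM in A and 159 ± 11.2 FPKM in Nc. VEGFA was called in all 3 comparisons, with 8.69 ± 1.83 FPKM in B, 6.37 ± 0.706 FPKM in A and 4.22 ± 0.0995 FPKM in Nc. Its log2 difference was 1.05 in B against Nc, 0.61 in A against Nc (edgeR adjusted p = 0.0364) and 0.44 in B against A (edgeR adjusted p = 0.0454). The call in B against Nc held without each library. That in A against Nc was lost without A2, A3, B2, Nc1, Nc2 or Nc3, and that in B against A without A1, A2, A3, B2, B3 or Nc3, with values from 0.32 to 0.64 over the 9 fits.

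Relatives and partners of the 9 genes were read by role. Of 7 mitophagy genes, 2 were higher in B than in Nc, where 6.12% of all genes were. They were BNIP3, already described among the 9, and GABARAPL1, an autophagosome protein bound by BNIP3 (0.85 ± 0.116, edgeR adjusted p = 0.000544). BNIP3L, the close relative of BNIP3, was higher in B than in A (0.59, edgeR adjusted p = 0.00407) and not called against Nc (0.31, edgeR adjusted p = 0.0948). The mitophagy kinase PINK1 differed among the 3 stems, with its highest level in A, at 7.39 ± 1.03 FPKM in B, 9.70 ± 0.844 FPKM in A and 6.90 ± 1.08 FPKM in Nc. A against Nc was called for it in the blocked fit (0.49, edgeR adjusted p = 0.000371) and not in the fit of all libraries (0.51, edgeR adjusted p = 0.0705). The blocked fit also called BNIP3L (-0.29) and GABARAPL1 (-0.20) lower in A. That makes 1 of the 7 higher and 2 lower, where 16.5% of all genes were higher and 18.3% lower.

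Of 10 genes of the pyruvate dehydrogenase switch, PDK1 was the one called higher in B than in Nc. DLD and PDHX, components of the complex, were called lower. Among all genes, 6.12% were higher and 7.24% lower in B than in Nc. DLD was at -0.59 ± 0.171 in B (edgeR adjusted p = 0.0334) and PDHX at -0.43 ± 0.137 (edgeR adjusted p = 0.0468). The phosphatase PDP1, which reverses the action of PDK enzymes, was lower in A than in Nc (-0.68 ± 0.161, edgeR adjusted p = 0.0335). PDK3 and the subunit PDHB were higher in B than in A, by 0.50 and 0.42. With 1 library left out, DLD lost its call without B1, B3, Nc1 or Nc3, PDHX without A2, A3, B1, B3, Nc1 or Nc2, PDP1 without A2, A3, Nc1 or Nc3, and PDK3 and PDHB without A3 or B3. With the block, DLD (-0.56) and PDK3 (-0.31) were called lower in A than in Nc as well. In that fit 1 of the 10 was higher and 4 lower, where 16.5% of all genes were higher and 18.3% lower. The transmembrane prolyl hydroxylase P4HTM was higher in B than in Nc by 0.75 ± 0.194 (edgeR adjusted p = 0.0212). With EGLN3 and EGLN1, already described, 3 of the 4 measured prolyl hydroxylase genes were higher, where 6.12% of all genes were. With 1 library left out, 1 to 4 of the 4 were higher. P4HTM lost its call without B3, Nc1 or Nc3 and EGLN1 without A3, B2, B3, Nc2 or Nc3, while EGLN3 kept its call. JMJD1C, a relative of KDM3A, was called in the test among the 3 stems and, with the block, was lower in A than in Nc (-0.60, edgeR adjusted p = 0.000315).

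In the adrenomedullin system, 3 of 7 measured genes were higher in B than in Nc, where 6.12% of all genes were. They were ADM, which is among the 9 genes already described, its relative ADM2 (2.03 ± 0.35, edgeR adjusted p = 0.00271) and ACKR3, a decoy receptor reported to bind adrenomedullin (1.14 ± 0.135, edgeR adjusted p = 0.000246). ACKR3 stood at 31.5 ± 1.78 FPKM in B, 11.7 ± 0.999 FPKM in A and 14.4 ± 2.48 FPKM in Nc. PAM, the enzyme that amidates the peptide, was higher in B than in A (0.50, edgeR adjusted p = 0.0179), a call lost without A2, A3 or B2, and ACKR3 was lower in A than in Nc with the block (-0.30, edgeR adjusted p = 0.0123). The receptor partners RAMP1, RAMP2 and RAMP3 did not pass the filter.

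Among 10 carbonic anhydrase and pH genes, CA9 was the one called higher in B against Nc, where 6.12% of all genes were. That call was lost when any single library was left out. CA2, the abundant cytosolic carbonic anhydrase, was lower in A than in Nc (-0.65 ± 0.129, edgeR adjusted p = 0.0122; lost without A2, A3 or Nc3), with 72.9 ± 5.98 FPKM in B, 43.1 ± 5.78 FPKM in A and 68.4 ± 6.02 FPKM in Nc. CA13 was higher in B than in A (0.70, lost without A2, A3 or B3), while with the block it was lower in A than in Nc (-0.52). PLIN2, which coats lipid droplets, was the one of 8 PPAR targets and receptors beside ANGPTL4 called higher in B than in Nc. Among all genes 6.12% were. The log2 difference of PLIN2 was 1.96 ± 0.41 (edgeR adjusted p = 0.00743). It had 0.366 ± 0.0611 FPKM in B, 0.139 ± 0.0886 FPKM in A and 0.0940 ± 0.00538 FPKM in Nc. None of these 8 was called in A against Nc in the fit of all libraries, and with the block the receptor PPARD was (0.25, edgeR adjusted p = 0.0493). Of regulators linked to NDRG1, MYC, a repressor of the gene, was higher in A than in Nc (0.53 ± 0.116, edgeR adjusted p = 0.0209; lost without A2, A3, Nc2 or Nc3) and not called in B (0.08). EGR1, an immediate early activator, averaged 6.16 ± 0.748 FPKM in B, 57.7 ± 3.21 FPKM in A and 7.47 ± 0.91 FPKM in Nc, and was higher in A than in Nc by 2.96 ± 0.133 (edgeR adjusted p = 2.16e-09).

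The rise of HIF targets in B came with shifts in cell type markers, whose part in the result was not tested. Of 8 keratinocyte markers, 3 were lower in B than in Nc, where 7.24% of all genes were lower. The median log2 difference was -0.21 over the 8. The 3 were KRT5 (-0.48, edgeR adjusted p = 0.0165), KRT14 (-2.21, edgeR adjusted p = 0.0174) and the desmosome protein DSP (-0.51, edgeR adjusted p = 0.0296). The values of KRT14 rest on few counts. KRT5 lost this call without B3 or Nc3, KRT14 without B2, B3 or Nc3 and DSP without B2, B3, Nc1 or Nc3. Against A, 5 of the 8 were lower in B, where 9.25% of all genes were lower, with a median log2 difference of -0.64 over the 8. The 5 were KRT5 (-0.70), KRT14 (-3.00), DSP (-0.68), the integrin ITGB4 (-0.76) and the hemidesmosome collagen COL17A1 (-0.61). The number lower was 5 in each of the 9 fits that left out 1 library. TP63, EGFR and PERP were not called in B against Nc or against A. Against Nc, ITGB4 (0.75) and COL17A1 (0.50) were higher in A, and COL17A1 lost this call without A1, A2, A3, B3, Nc2 or Nc3. The 6 endothelial markers summed to 197 to 246 counts in B, 27 to 52 in A and 48 to 73 in Nc. Most of these counts were CDH5, with 185, 230 and 206 counts in B, while VWF, KDR, TEK and CLDN5 did not pass the filter. Melanocyte markers summed to 43 to 54 counts in B, 17 to 27 in A and 14 to 23 in Nc, most of them PMEL. Fibroblast markers summed to 38 to 65 counts in B, 27 to 195 in A and 48 to 70 in Nc, and those of immune and blood cells to 28 to 8574 in B, 51 to 1296 in A and 20 to 7563 in Nc.

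Pearson's r of log2 CPM over the 9 libraries was used to describe which genes resembled NDRG1 and ADM, the HIF target genes with the most raw counts in all. Among the genes closest to NDRG1 were the enolase ENO2 (r = 0.984) and PPL, a cornified envelope protein (r = 0.984). PPL was higher in B than in Nc by 0.70 log2. Closest to ADM were the tetraspanin CD9 (r = 0.966), BPHL (r = 0.964) and the phosphatase DUSP14 (r = 0.963). The 9 points fall into 3 stems and share the depth of their libraries, so these values give an order of likeness and nothing more.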

How the data were processed

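RNA of 9 HaCaT libraries was sequenced in read pairs of 150 bases, per the labels' protocols. Per the submitters' processing notes, the tools were FastQC, HISAT2 and StringTie, on GRCh38. Their versions, the annotation and the strand setting were not stated. The deposited counts are whole numbers per gene without normalization. The FPKM were made by the authors, and each equalled count over gene length and a library constant, to a relative difference of 2.75e-13; the constant was 0.936 to 1.07 times the library total. All 9 columns of libraries were used and 0 were left out.

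The members and the gene lists were chosen with earlier results of these data known. Counts were fitted with edgeR 4.0.16 in R 4.3.3 (TMM scaling, filterByExpr, all 9 libraries in 1 quasi-likelihood fit), with Benjamini-Hochberg adjustment over 13845 genes and a threshold of 0.05. Intervals are 95% intervals of the fit. DESeq2 1.42.0 and limma 3.58.1, on log2(FPKM + 0.1), were alternatives. The fit was tested on artificial counts with known answers. Genes named from lists were all HIF regulators that passed the filter and, of other lists, up to 10 genes called among the 3 stems with the largest change against Nc. SLC2A1, SLC2A3, HMOX1, ITGA5, PDHX, PPARD and the marker genes fall outside this rule and were named after their values were seen. Some genes that the rule names are not reported here. Sequences are from RefSeq, and overlaps from GENCODE 29, where all 9 genes had the deposited start and end. The deviations of same-numbered libraries from their stem means correlated at 0.225 to 0.470 between A and Nc, so these were treated as paired. They correlated at -0.331 to -0.263 between B and Nc and at -0.236 to -0.195 between A and B, so B was not paired by number. Under 1 shift of the numbers, B and Nc correlated at 0.312 (B2 and Nc1), 0.226 (B3 and Nc2) and 0.252 (B1 and Nc3). The same shift gave 0.311 (A1 and B2), 0.246 (A2 and B3) and 0.280 (A3 and B1) between A and B. The remaining pairs ran from -0.0190 to 0.103 between B and Nc and from -0.115 to -0.0251 between A and B. Whether B is matched to the other stems under these shifted numbers was not tested, and no fit used them. The pairing of A and Nc comes from the correlations of same-numbered libraries and not from the labels.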

Additional observations from a re-analysis of the deposited data

Results flagged for a closer look

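For 5 of the 9 HIF target genes the change against Nc differed between the treated stems. The edgeR test of B against A is the test of that difference. All 5 were higher in B, where 8.79% of all genes were higher and 9.25% lower. The log2 difference, B minus A, was 0.91 for NDRG1, 0.57 for BNIP3, 0.83 for EGLN3, 0.81 for PDK1 and 2.40 for CA9. For CA9 the difference rests on few counts and was no longer called without A2 or without A3. Which stem is the later time is not known from the sources used here.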

How the results depend on the processing

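Of the 9 genes, NDRG1, BNIP3, EGLN3 and PDK1 were called higher in B against Nc and in B against A under all 18 other settings, as was ANGPTL4 in B and in A against Nc. KDM3A in B against Nc, never called, changed sign to 0.0149 with library totals, 0.0237 with a mean of at least 100 counts, 0.00315 with the replicate block, and ranged from -0.122 to 0.0912 with 1 library left out (0.0912 without Nc1, 0.01 without Nc3, 0.03 without B1, 0.07 without B3). In A against Nc, 376 genes were called, against 794 with DESeq2, 992 with no filter, 130 with limma on FPKM, 244 with the replicate block over all stems, 4601 with the block on these stems alone (3 HIF target genes in place of 1) and 101 to 910 without 1 library. In B against Nc, 1850 genes were called, against 868 with limma, 777 with the block on these stems alone and 489 (without B3) to 2088 without 1 library. B against A called 2498, against 1653 with limma and 1160 to 3197 without 1 library, and the test among 3 stems 3085, against 1481 with limma and 1349 to 3728. With 1 library left out, the number of HIF target genes called was 5 to 7 in B against Nc, 4 to 6 in B against A, 1 in A against Nc and 5 to 8 among the 3 stems. Library totals in place of TMM changed the split of calls to 750 higher and 492 lower in B against Nc (847 and 1003 with TMM) and to 1346 and 799 in B against A (1217 and 1281). In the block on 2 stems, ADM lost its call in B against Nc (edgeR adjusted p = 0.058), and CA9 lost its call there in 15 settings. Same-numbered libraries of B and the other stems were negatively correlated, so blocks that hold B do not stand for a pairing. Leaving out each library was added for the list genes after the results were seen. The cause of these changes was not tested. Depth limits CA9, with 1 to 14 counts in a library. CA9 was too low for limma, the mean of 100 counts and the A against Nc fit alone, and ANKRD37 for the mean of 100.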
